A study of Rattus norvegicus with 8 samples.

Results

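The chemokines that call neutrophils and mononuclear leukocytes into injured skin were examined as a set of 7 genes, chosen by Ensembl rat identifier. They were Cxcl1 (ENSRNOG00000002802), Cxcl2 (ENSRNOG00000002792) and Cxcl3 (ENSRNOG00000028043), which act on neutrophils, and Ccl2 (ENSRNOG00000007159), Ccl3 (ENSRNOG00000011205), Ccl4 (ENSRNOG00000011406) and Ccl20 (ENSRNOG00000015992), which act on monocytes, lymphocytes and dendritic cells. All 7 were present among the 26404 gene identifiers of the count table. The expression filter left 14240 genes, with 5 of the 7 members among them. Cxcl3 and Ccl4 had too few counts to be tested.

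The material was dorsal hind paw skin of Sprague-Dawley rats of 125 to 200 g. In the burn group 1 hind paw was dipped to the ankle in 60 °C saline for 2 min, which gives a deep partial-thickness burn. In the control group the opposite paw was dipped in saline at room temperature. All rats were under urethane anaesthesia, and all skin was cut from sites that had held a microdialysis probe, so both groups share the anaesthetic and the probe wound. There were 4 burn and 4 control libraries of poly(A)-enriched RNA. The labels do not say which burn and control sites came from the same rat, whether each library of a group is a different rat, or how long after the burn the skin was taken. P-values therefore measure only the spread between these samples, which may be technical. The cell types of the skin were not checked, because the sources used here pair no marker gene with its identifier.

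Chemokines are small secreted proteins that guide leukocytes along a concentration gradient by binding receptors of the G protein-coupled class. Cxcl1, Cxcl2 and Cxcl3 are rat ligands of Cxcr2, the main neutrophil chemokine receptor. Ccl2 recruits monocytes through Ccr2, Ccl3 and Ccl4 are made by activated macrophages and other leukocytes and attract mononuclear cells, and Ccl20 draws dendritic cells and lymphocytes that carry Ccr6 and is made by epithelial cells, keratinocytes included. Transcription of many of these genes is induced by NF-kB after interleukin-1 or tumour necrosis factor signalling, and their messages are short-lived. In bulk skin, a change in the number of cells that make a transcript and a change in transcript per cell cannot be told apart.

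In the RefSeq gene table (assembly GRCr8) all 7 symbols were found. Cxcl2 and Cxcl1 were direct neighbours on chromosome 14 with Cxcl3 close by, 1 other protein-coding gene lying between it and Cxcl1. Ccl3 and Ccl4 were direct neighbours on chromosome 10, with Ccl2 on the same chromosome and Ccl20 on chromosome 9. These families arose by gene duplication, so reads from similar stretches of Cxcl1, Cxcl2 and Cxcl3, or of Ccl3 and Ccl4, could have been split or lost in counting, and the counts carry that uncertainty.

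Promoters were at hand for 3 members, and are shown to set Cxcl1 and Cxcl2, which were high in the same burn libraries, beside Ccl20, which was not. Each run holds the 250 bases before and the first 50 bases of the gene, 5′ to 3′ on the gene's strand, from RefSeq (GRCr8). Capitals mark matches to GGGNNTTTCC, an NF-kB-like motif searched on both strands.
Cxcl1, chr14:17479272-17479571, minus strand: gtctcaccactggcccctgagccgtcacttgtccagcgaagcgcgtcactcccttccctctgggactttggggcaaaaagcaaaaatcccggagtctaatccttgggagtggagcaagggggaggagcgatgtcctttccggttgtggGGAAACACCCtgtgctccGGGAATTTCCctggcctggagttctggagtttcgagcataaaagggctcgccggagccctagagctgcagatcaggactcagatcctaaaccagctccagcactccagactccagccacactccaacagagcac
Cxcl2, chr14:17467206-17467505, minus strand: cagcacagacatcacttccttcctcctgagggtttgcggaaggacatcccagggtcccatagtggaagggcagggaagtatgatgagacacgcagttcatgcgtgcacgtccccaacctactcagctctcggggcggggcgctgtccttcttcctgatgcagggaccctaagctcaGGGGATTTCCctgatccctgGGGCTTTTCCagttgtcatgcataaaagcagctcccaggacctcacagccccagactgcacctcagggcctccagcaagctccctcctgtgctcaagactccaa
Ccl20, chr9:91836909-91837208, plus strand: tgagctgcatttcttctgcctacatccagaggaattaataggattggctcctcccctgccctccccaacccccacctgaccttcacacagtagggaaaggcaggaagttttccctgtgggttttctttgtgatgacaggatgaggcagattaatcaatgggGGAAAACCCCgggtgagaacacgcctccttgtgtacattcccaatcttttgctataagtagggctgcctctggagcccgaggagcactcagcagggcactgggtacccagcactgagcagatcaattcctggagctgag

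The match GGGAATTTCC began 84 bases before the Cxcl1 gene, and a match on the opposite strand, printed as GGAAACACCC, began 102 bases before it. Cxcl2 had GGGGATTTCC from 74 bases and GGGCTTTTCC from 54 bases before the gene. Ccl20 had 1 match, on the opposite strand, from 89 bases before the gene. Of the 33469 rat promoters of this length in the table, 1.53% held the motif. Its letters were settled after these sequences had been read, so the matches are a description only. The motif was present in the promoters of both the members that were high in burn replicates 1 and 2 and the one that was not. An AP-1-like motif, TGANTCA, was in 7.33% of all these promoters and in none of the 3 windows.

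Libraries held 13693811 to 18738652 counts in burn and 17824830 to 26837925 in control. Burn replicate 3 stood apart, with a count for 15354 genes and only 625 genes at 1 to 3 counts, against at least 17322 and 1642 in each other library. Fold changes of the tested members, and SDs and ratios that moved, are also given without it. Levels are counts per 1000000 library counts (CPM) scaled by trimmed mean of M values (TMM) factors, and spreads and means of logs are on the log2 CPM scale with a prior count of 2. A gene was called changed at an adjusted p under 0.05 in the edgeR quasi-likelihood test over all 14240 genes.

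Among the 5 chemokines tested, Ccl3 was the one called, about 10-fold higher in burned skin. Cxcl1, Cxcl2 and Ccl2 were above every control in burn replicate 2, Cxcl1 and Cxcl2 also in burn replicate 1, and each was within or below the control range in the remaining burn libraries, so none of them passed the test. Ccl20 was on average lower in burned skin and did not pass either. The test called 1 of the 5 tested members higher, where it called 11.9% of all genes tested higher, and called 0 lower, where it called 10.0%. That is 1 gene, and the count says nothing particular about the set. At an unadjusted p under 0.05 edgeR had 1 member higher and 0 lower, against 20.4% and 17.4% of all genes tested. The DESeq2 Wald test also called Ccl3 alone higher and 0 members lower, where it called 16.8% of genes higher and 15.5% lower. Limma-voom did the same, with 10.8% of genes higher and 11.7% lower. The median log2 fold change was 2.52 over the 5 tested members and 0.06 over all genes tested, and 4 of the 5 were above 0. By limma-voom the members' median was 0.19 with 3 of the 5 above 0, and without burn replicate 2 it was 0.95 with 3 of the 5 above 0. The 2.52 is the value of Cxcl2 itself, for which no direction is given below. These figures leave out the scarce Cxcl3 and Ccl4, and include Ccl3, which passed the filter through its burn libraries.

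**Figure D1:**
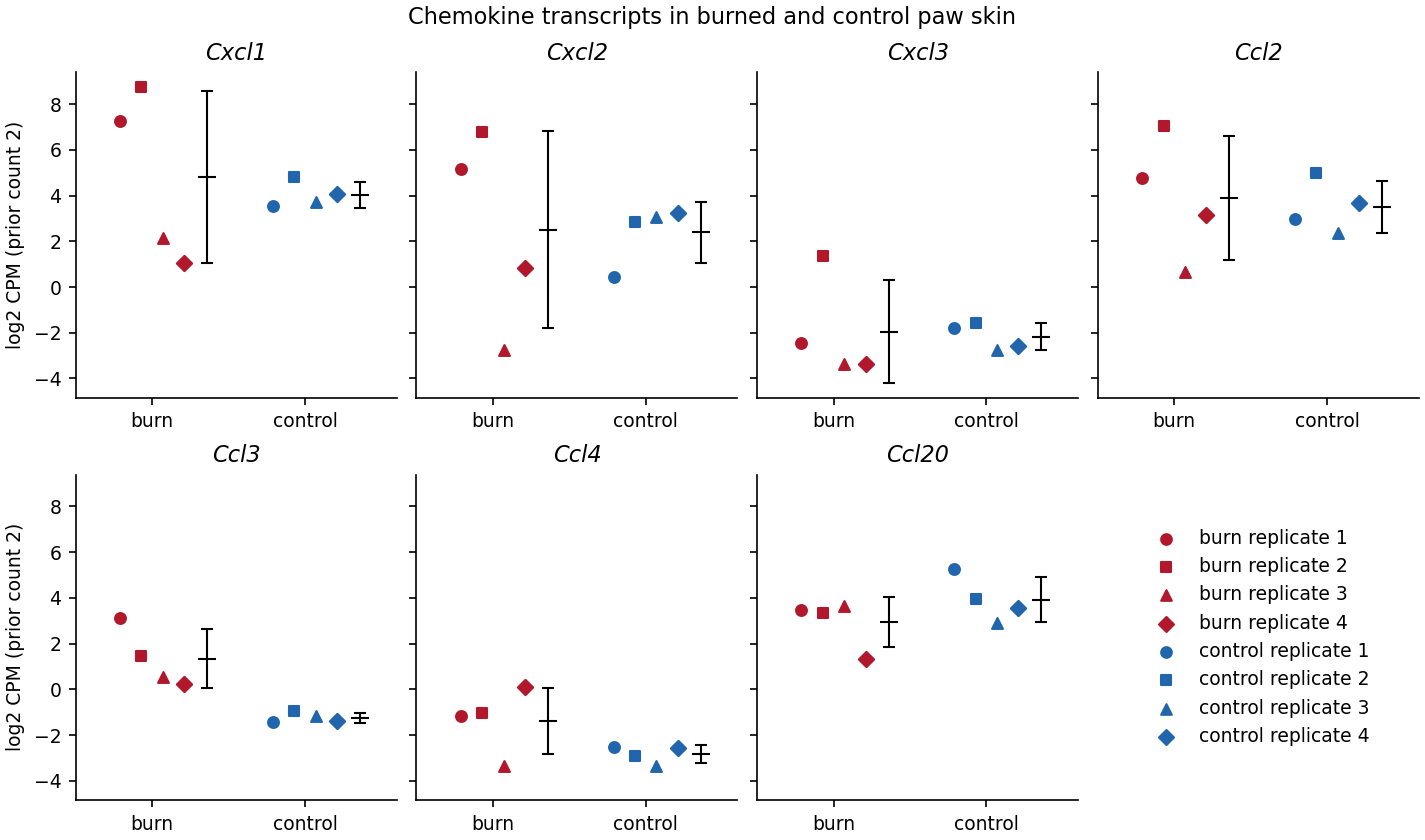
Log2 CPM of the 7 chemokine genes, with burn libraries as red and control libraries as blue points, and bars for the mean ± SD of 4; marker shapes give the replicate number, which does not pair the groups. Cxcl1, Cxcl2 and Ccl2 are spread widely in burn, Ccl3 lies above every control in all 4 burn libraries, and Ccl20 overlaps.

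Among the neutrophil chemokines, Cxcl1, also known as CINC-1 in the rat, had 155, 430, 4.36 and 1.99 CPM in burn replicates 1 to 4, against 11.5, 28.0, 13.2 and 16.8 CPM in control replicates 1 to 4. Burn replicates 1 and 2 lay above every control, and burn replicates 3 and 4 lay below every control. The counts behind the values were 1785, 6497, 83 and 33 in burn and 294, 808, 267 and 469 in control, so the low burn values do not rest on single reads. The mean was 148 ± 201 CPM in burn and 17.4 ± 7.43 CPM in control (SD, n = 4 each), with a fitted log2 fold change of 3.09 (95% interval -0.02 to 6.19, edgeR adjusted p = 0.134).

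That fitted fold change rests on the arithmetic level and therefore on the high burn libraries. On the log2 CPM scale the Cxcl1 means were 4.81 ± 3.77 in burn and 4.04 ± 0.56 in control (SD, n = 4 each). Without burn replicate 2 the fitted log2 fold change was 1.62 (edgeR adjusted p = 0.356), and limma-voom, which averages logs, gave 0.56 (adjusted p = 0.821), or 0.06 with quality weights (adjusted p = 0.977). Without burn replicate 3 the value was 3.49 (edgeR adjusted p = 0.0606), still short of the threshold.

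Cxcl2, also known as macrophage inflammatory protein 2, had 36.1, 110, 0.0525 and 1.69 CPM in burn replicates 1 to 4, against 1.25, 7.07, 8.20 and 9.31 CPM in control replicates 1 to 4. Burn replicates 1 and 2 were again above every control, burn replicate 3 was below every control, and burn replicate 4 lay inside the control range. The value in burn replicate 3 is 1 count, in the library where low counts were scarce, beside 1664 counts in burn replicate 2. The part of that library's scarcity in the low value was not tested. Among controls, replicate 1 was far below the rest, with 32 counts against 166 or more.

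The fitted log2 fold change of Cxcl2 was 2.52 (95% interval -0.78 to 5.81, edgeR adjusted p = 0.238). Mean levels were 37.0 ± 51.6 CPM in burn and 6.46 ± 3.59 CPM in control (SD, n = 4 each). Without burn replicate 2 the log2 fold change was 0.95 (edgeR adjusted p = 0.617), and without burn replicate 3 it was 2.93 (edgeR adjusted p = 0.0801). Limma-voom turned the sign, to -0.45 (adjusted p = 0.883), and with quality weights it gave 0.70 (adjusted p = 0.724). No direction is given for Cxcl2 on that account.

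Cxcl3, the third of this neutrophil-attracting group, was scarce. It had 1, 37, 0 and 0 counts in burn replicates 1 to 4, against 5, 7, 1 and 2 in control replicates 1 to 4. Burn replicate 2 alone was above every control, the same library in which Cxcl1 and Cxcl2 were highest. Its 37 counts are 1.97 CPM of the library total, with an exact 95% binomial interval of 1.39 to 2.72, which covers counting error only. Taking 3 counts as the limit that 0 allows, Cxcl3 could have been present at up to 0.157 normalised CPM in burn replicate 3 and 0.181 in burn replicate 4. With no expression filter the log2 fold change was 2.05 (95% interval -1.23 to 5.33, edgeR adjusted p = 0.374 over 20370 genes).

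Ccl2, or monocyte chemoattractant protein 1, had 27.3, 133, 1.47 and 8.67 CPM in burn replicates 1 to 4, against 7.72, 31.4, 4.99 and 12.7 CPM in control replicates 1 to 4. Only burn replicate 2 was above every control. Burn replicates 1 and 4 lay inside the control range and burn replicate 3 below it. The controls were themselves uneven, the highest being 6.29 times the lowest.

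Mean Ccl2 was 42.6 ± 61.2 CPM in burn and 14.2 ± 11.9 CPM in control (SD, n = 4 each), and the fitted log2 fold change was 1.58 (95% interval -0.97 to 4.13, edgeR adjusted p = 0.336). The direction of Ccl2 turned on burn replicate 2. Without that library the log2 fold change was -0.20 (edgeR adjusted p = 0.878), and without burn replicate 3 it was 1.98 (edgeR adjusted p = 0.140). Limma-voom gave 0.19 (adjusted p = 0.925), or 0.68 with quality weights (adjusted p = 0.564).

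Ccl3, also called macrophage inflammatory protein 1 alpha, gave the one separation in the set. It had 8.60, 2.65, 1.36 and 1.08 CPM in burn replicates 1 to 4, against 0.273, 0.416, 0.346 and 0.286 CPM in control replicates 1 to 4. All 4 burn libraries were above all 4 controls, as 15.4% of the genes tested were. The counts were few, at 99, 40, 26 and 18 in burn and 7, 12, 7 and 8 in control. Ccl3 therefore passed the expression filter through its burn libraries, and with no filter the log2 fold change was 3.27 (edgeR adjusted p = 0.0172 over 20370 genes).

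The mean of Ccl3 was 3.42 ± 3.52 CPM in burn and 0.330 ± 0.0652 CPM in control (SD, n = 4 each). The fitted log2 fold change was 3.34 (SE 0.73, 95% interval 1.69 to 4.98, edgeR adjusted p = 0.0156), a 10.1-fold difference. Of the genes tested, 98.9% had a lower log2 fold change. Ccl3 entered that set through its burn libraries, so this place is a description only. Burn replicate 1 held the highest value, and without it the log2 fold change was 2.34 (edgeR adjusted p = 0.0285). Without burn replicate 3 it was 3.60 (edgeR adjusted p = 0.00902). The call was lost, narrowly, without control replicate 1, 2 or 4, at adjusted p of 0.0518, 0.0514 and 0.0508 with log2 fold changes of 3.25, 3.46 and 3.27.

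Ccl4, macrophage inflammatory protein 1 beta and the neighbour of Ccl3 in the genome, had 4, 6, 0 and 16 counts in burn replicates 1 to 4, against 2, 1, 0 and 2 in control replicates 1 to 4. Burn replicates 1, 2 and 4 were above every control, and burn replicate 3 was listed at 0, as was control replicate 3. Exact 95% binomial intervals were 0.0796 to 0.748 CPM of the library total in burn replicate 1 and 0.118 to 0.697 in burn replicate 2. Both overlap the 0.0101 to 0.300 of control replicate 1. The interval of burn replicate 4, 0.492 to 1.40, lay above those of all controls. The 0 in burn replicate 3 allows up to 0.157 normalised CPM, above each of the other 3 control values, so a lower level there than in control was not detectable at this depth. The highest burn library for Ccl4, replicate 4, was the lowest for Ccl3. With no expression filter the log2 fold change of Ccl4 was 2.97 (95% interval 0.25 to 5.68, edgeR adjusted p = 0.137 over 20370 genes), short of the threshold after adjustment.

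Ccl20, the ligand of Ccr6, was the one tested member with a negative fold change. It had 10.9, 10.1, 12.3 and 2.41 CPM in burn replicates 1 to 4, against 38.1, 15.3, 7.46 and 11.7 CPM in control replicates 1 to 4. Burn replicates 1, 2 and 3 lay close together inside the control range, and burn replicate 4 was below every control. Burn replicate 3, in which Cxcl1, Cxcl2 and Ccl2 were below every control, had the highest Ccl20 of the burn group, with 234 counts.

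Mean Ccl20 was 8.94 ± 4.45 CPM in burn and 18.1 ± 13.7 CPM in control (SD, n = 4 each), and the fitted log2 fold change was -1.02 (95% interval -2.38 to 0.33, edgeR adjusted p = 0.243). Control replicate 1 held the highest value, and without it the log2 fold change was -0.37 (edgeR adjusted p = 0.665), and without burn replicate 4 it was -0.71 (edgeR adjusted p = 0.366). Without burn replicate 3 it was -1.22 (edgeR adjusted p = 0.206), and limma-voom with quality weights gave -1.86 (adjusted p = 0.162). The sign stayed negative in every alternative run and the threshold was passed in none.

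**Figure D2:**
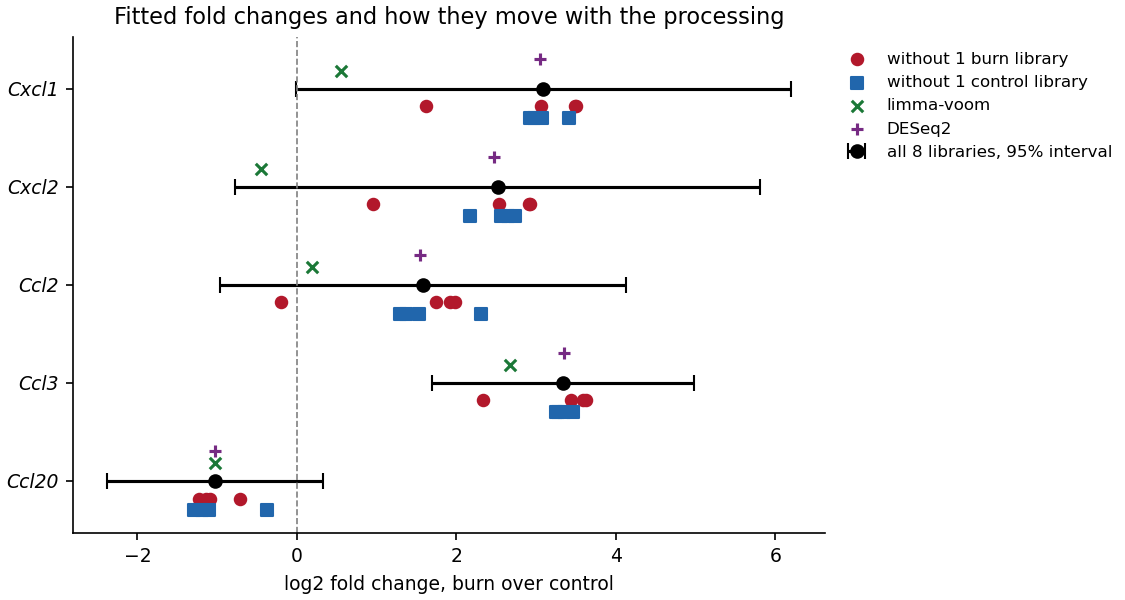
Log2 fold change of burn over control for the 5 chemokines tested (x axis), with the edgeR value and 95% interval from all 8 libraries in black and the values without 1 library, by limma-voom and by DESeq2 as coloured marks. Ccl3 stays above 2 throughout, limma-voom and the refit without burn replicate 2 move Cxcl1, Cxcl2 and Ccl2 towards or past 0, and Ccl20 stays below 0.

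Cxcl1, Cxcl2 and Ccl2 varied widely from one burn library to another. Across the burn libraries the highest Cxcl1 value was 217 times the lowest, against 2.44 times among controls. For Ccl2 the ratio was 90.4 in burn and 6.29 in control, for Ccl3 it was 7.94 in burn and 1.52 in control, and for Ccl20 it was 5.10 in burn and 5.11 in control. For Cxcl2 the lowest burn value is a single count, and no such ratio is given.

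The SD of Cxcl2 on the log2 CPM scale was 4.31 in burn and 1.32 in control. That of Cxcl1 was 3.77 in burn and 0.56 in control, and that of Ccl2 was 2.70 in burn and 1.13 in control. The Cxcl2 value rests in part on the single count in burn replicate 3. Ranked by burn SD, Cxcl2 was number 8, Cxcl1 number 17 and Ccl2 number 83 of the 14240 genes tested, whose median SD was 0.52 in burn and 0.25 in control. Ccl3, with SDs of 1.29 in burn and 0.22 in control, varied more than 87.3% of genes in burn and 41.0% in control. Ccl20, with SDs of 1.09 in burn and 0.99 in control, varied more than 81.7% of genes in burn and 97.7% in control. All 5 tested members had the larger SD in the burn group, and so did 84.0% of all genes tested, so the direction of that difference is not particular to them. Without burn replicate 3 the burn SD was 3.08 for Cxcl2, 4.08 for Cxcl1 and 1.97 for Ccl2, which then ranked 32nd, 16th and 222nd, and the median over all genes was 0.36. It was 1.45 for Ccl3 and 1.21 for Ccl20. All 5 tested members still had the larger SD in burn without that library, and so did 68.4% of all genes tested. Scarce genes have noisier logs, and these ranks are not matched for abundance.

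**Figure D3:**
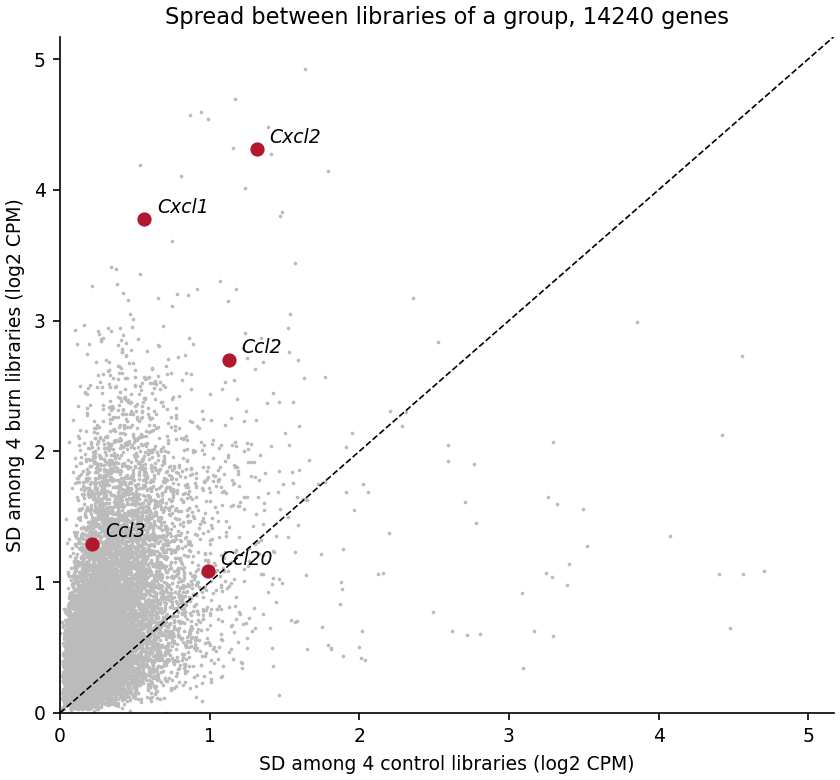
SD of log2 CPM among the 4 burn libraries (y axis) against the SD among the 4 control libraries (x axis), 1 grey point per gene tested, with the 5 chemokines in red and equality as the dashed line. Cxcl1 and Cxcl2 lie near the top of the plot, Ccl2 below them, Ccl3 within the main cloud and Ccl20 next to the line.

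The particular order of Cxcl1, with burn replicates 1 and 2 above and burn replicates 3 and 4 below every control, was shared by 37 genes, Cxcl1 included, or 0.260% of those tested. The other ways of placing 2 burn libraries above and 2 below every control were taken by 23 to 154 genes each, and no other member was among them.

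Likeness between members was described by the root mean square difference between their centred log2 CPM values over the 8 libraries. It was 1.41 log2 units between Cxcl1 and Cxcl2, 1.32 between Cxcl1 and Ccl2 and 1.43 between Cxcl2 and Ccl2. Seen from Cxcl2, Cxcl1 was the 4th nearest and Ccl2 the 6th nearest of 14239 other genes, and seen from Cxcl1, Ccl2 was 7th and Cxcl2 10th. Few genes vary as widely as Cxcl1 and Cxcl2, and the part of that in these ranks was not tested. From Ccl2, which varied less, Cxcl1 ranked 584th and Cxcl2 1034th. Ccl3 and Ccl20 lay at differences of 1.90 and 2.05 from Ccl2, 2.02 and 2.31 from Cxcl1, and 2.62 and 3.01 from Cxcl2, each larger than those among Cxcl1, Cxcl2 and Ccl2. Seen from Cxcl1, Ccl3 ranked 691st and Ccl20 4217th. From Cxcl2 they ranked 3646th and 11351st, and from Ccl2 8066th and 10848th. Ccl3 and Ccl20 differed from each other by 2.03.

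The gene nearest to the mean profile of the 5 tested members was ENSRNOG00000011483, at a root mean square difference of 0.50 log2 units over the 8 libraries. It had 220, 607, 34.7 and 64.7 CPM in burn replicates 1 to 4, against 75.0, 163, 50.8 and 73.5 CPM in control replicates 1 to 4. The next was ENSRNOG00000033879, at 0.54 log2 units, with 33.2, 56.2, 1.36 and 6.32 CPM in burn replicates 1 to 4, against 5.26, 6.86, 3.26 and 5.84 CPM in control replicates 1 to 4. Both were highest in burn replicate 2 and lowest in burn replicate 3, an order that comes with their choice by likeness to the members. Neither passed the test (edgeR adjusted p = 0.253 and 0.114), and the sources used here do not name them.

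Ratios of 2 members within a library do not depend on library scaling, and show whether the chemokines kept their proportions. All 10 pairs of tested members were compared by a two-sided exact permutation test, whose smallest possible p with 4 against 4 libraries is 0.0286. A lone pair at that smallest p has an adjusted p of 0.286, so no pair could pass unless several reached it together. With adjustment over the 10 pairs, 0 passed 0.05 and 1 had an unadjusted p under 0.05. The lack of a passing pair therefore does not show that proportions were kept. That pair was Ccl3 and Ccl20. The log2 ratio of Ccl3 to Ccl20 counts was -0.35, -1.92, -3.15 and -1.13 in burn replicates 1 to 4, against -7.03, -5.15, -4.34 and -5.27 in control replicates 1 to 4. Every burn library was above every control, and the mean ratio was higher by 3.81 log2 units in burn (exact permutation p = 0.0286, adjusted p = 0.286). Ccl3 separated the groups by itself and entered the pairs through its burn libraries. The ratio reuses those counts and is not separate support. The share of other gene pairs that separate in this way is not given here.

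The ratio of Cxcl1 to Cxcl2 averaged 2.52 ± 2.34 log2 units in burn and 1.67 ± 1.16 in control (SD, n = 4 each), a difference of 0.85 (exact permutation p = 0.629, adjusted p = 0.771). In burn replicates 1 and 2, where both genes were high, it was 2.10 and 1.96. Those values lie inside the control range of 0.68 to 3.18. In burn replicates 3 and 4, where Cxcl1 was below every control, the ratios were 5.80 and 0.23, outside it on opposite sides, the first resting on the single Cxcl2 count. Without burn replicate 3 the difference was -0.24 (exact permutation test, adjusted p = 0.886).

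The ratio of Cxcl1 to Ccl2 was 2.51, 1.70, 1.55 and -2.11 in burn replicates 1 to 4, against 0.57, -0.17, 1.40 and 0.40 in control replicates 1 to 4. Burn replicates 1, 2 and 3 were above every control and burn replicate 4 was below every control, in which Cxcl1 was low and Ccl2 was not. The mean difference was 0.36 log2 units (exact permutation p = 0.771, adjusted p = 0.771). The ratio of Cxcl1 to Ccl3 was 4.17, 7.33, 1.66 and 0.86 in burn replicates 1 to 4, against 5.30, 6.02, 5.16 and 5.79 in control replicates 1 to 4. It was below every control in burn replicates 1, 3 and 4 and above in burn replicate 2, with a mean difference of -2.06 (exact permutation p = 0.286, adjusted p = 0.667). The remaining 6 pairs had adjusted p of 0.667 or 0.771. Among them, leaving out burn replicate 3 turned the difference for Cxcl2 to Ccl2 to 0.39 in place of -0.49, and gave 3.11 in place of 0.90 for Cxcl2 to Ccl20, 2.86 in place of 1.75 for Cxcl1 to Ccl20, 2.72 in place of 1.38 for Ccl2 to Ccl20, -1.21 in place of -2.91 for Cxcl2 to Ccl3 and -1.60 in place of -2.42 for Ccl2 to Ccl3. Without that library the difference was 0.15 for Cxcl1 to Ccl2, -1.45 for Cxcl1 to Ccl3 and 4.31 for Ccl3 to Ccl20. Leaving out burn replicate 2 gave -3.34 for Cxcl1 to Ccl3 and -4.37 for Cxcl2 to Ccl3. It gave -3.44 for Ccl2 to Ccl3 and 3.90 for Ccl3 to Ccl20. Each of these had an adjusted p of 0.0714 (exact permutation test), and the pairs without Ccl3 had 0.886. The pairs with Ccl3 share its counts, which entered through the burn libraries, and are not separate support. No pair passed in either case, which the smallest possible p limits here too.

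**Figure D4:**
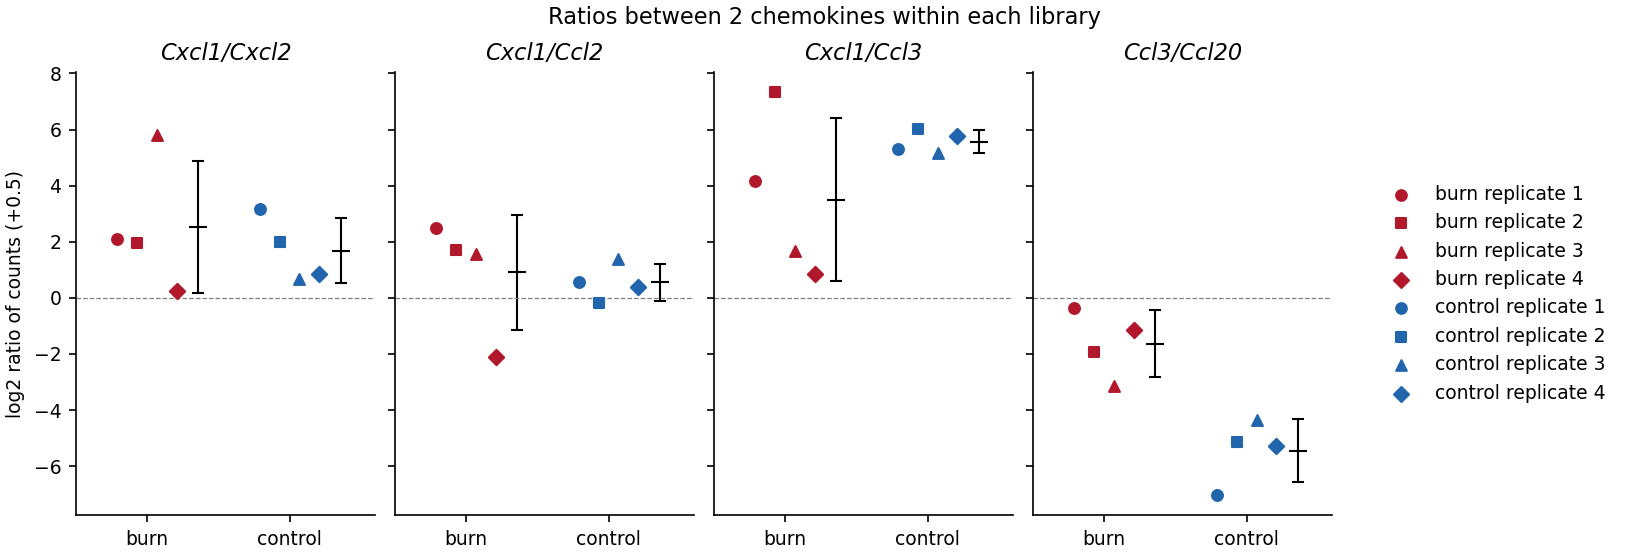
Log2 ratio of the counts of 2 chemokines within each library, after adding 0.5, for 4 of the 10 pairs, with burn libraries as red and control libraries as blue points, and bars for the mean ± SD of 4; marker shapes give the replicate number, which does not pair the groups. The ratio of Ccl3 to Ccl20 is higher in all 4 burn libraries than in any control, and the other ratios overlap or straddle the control range.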

How the data were processed

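The authors deposited unnormalised whole read counts for each Ensembl rat gene, 1 column per library. Per the submitters' processing notes, TopHat2 2.0.9, HTSeq 0.5.4p3, edgeR, R 3.0.1, limma and the build Rnor_5.0 were used. The sources used here give neither their roles nor the annotation release and strand setting. Groups came from the treatment label. Replicates were numbered in accession order, and the numbers were not used to pair libraries. The members and lists were chosen with earlier results of these data known. The rule for named genes took all 7 members and the 2 genes nearest to their mean profile.

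The count table holds identifiers only. The members' symbols came with the list of identifiers that defined the set, and 0 of the 47357 entries of the RefSeq gene table carry an Ensembl identifier to check them by. Receptors, other chemokines, NF-kB genes and cell type markers were therefore not analysed here. Promoters of 3 members were in the RefSeq table, and those of Cxcl3, Ccl2, Ccl3 and Ccl4 were not used here.

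Burn and control were compared with edgeR 4.0.16 in R 4.3.3: default expression filter (minimum count 10), TMM factors, robust quasi-likelihood test on the group alone, two-sided, Benjamini-Hochberg adjustment over all 14240 genes. The SE is the log2 fold change over the square root of F. Alternatives were median-ratio factors, library size alone, no filter, 1 CPM in 4 libraries, DESeq2 1.42.0, limma-voom 3.58.1 with and without quality weights, and leaving out each library. SDs without burn replicate 3 were added after seeing the data. Ratios added 0.5 to each count, or 2 as an alternative. No library of a group was a repeat deposit of another within counting noise, the chi-square between any pair being at least 26.7 times its degrees of freedom, which does not show that they came from separate rats. A count of 0 allows up to 3 counts, which is 0.104 to 0.261 normalised CPM per library. Intervals cover counting error only where they are binomial.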

Additional observations from a re-analysis of the deposited data

Results flagged for a closer look

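Each group's 4 values were tested for 1 value far from the rest, for the 7 genes and the 10 ratios, and 3 of 34 screens picked one. Chance picks about 1 in 20 separate screens, and these share genes. Cxcl2 in control replicate 1 was at 0.43 log2 CPM, the other controls being at 2.84 to 3.23. Ccl20 in burn replicate 4 was at 1.32 log2 CPM, the other burn libraries being at 3.36 to 3.63. The log2 ratio of Cxcl1 to Ccl20 in control replicate 1 was -1.73, the other controls being at 0.52 to 0.87. Control replicate 1 was also the control with the highest Ccl20.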

How the results depend on the processing

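Of 74 recomputed fold changes of the 5 tested members, over 15 alternatives, 69 kept the sign of the main value and its side of the threshold. That tally takes no account of size. Cxcl1 at 0.06 by limma-voom with quality weights counts as kept, against 3.09 in the main fit. Limma-voom turned Cxcl2 to -0.45. Leaving out each library in turn gave -0.20 (without burn replicate 2) to 2.31 for Ccl2, 2.34 to 3.63 for Ccl3 with adjusted p of 0.00902 to 0.0518, 1.62 to 3.50 for Cxcl1 and 0.95 to 2.93 for Cxcl2. The number of members called higher was 0 to 1 in those refits, and 0 with a filter of 1 CPM in 4 libraries, which removed Ccl3 itself. The DESeq2 adjusted p of Ccl3 was 4.70e-05 and that of limma-voom 0.0427. Over all genes tested, 1689 were called higher and 1426 lower; library size alone gave 894 higher and 2138 lower (29.5% of calls higher, against 54.2%), put the all-gene median at -0.15 in place of 0.06 log2 units, and left Ccl3 at 3.04 and Ccl20 at -1.19. DESeq2 gave 2203 lower, and leaving out 1 library gave 673 to 2314 higher and 546 to 1929 lower. The highest of these, 2314 and 1929, came without burn replicate 3, and the lowest, 673 and 546, without control replicate 2. Refits with 1 library less have fewer samples. The cause of these changes was not tested. Of 90 recomputed ratio differences 84 kept their direction, and 0 passed the threshold. With a smallest possible p of 0.0286 in each run, none could pass unless several pairs reached it together. That 0 passed is therefore no measure of stability. Leaving out 1 library gave -0.17 to 1.37 for Cxcl1 to Ccl2, -0.47 to 3.11 for Cxcl2 to Ccl20, -0.24 to 1.61 for Cxcl1 to Cxcl2 and -1.16 to 0.39 for Cxcl2 to Ccl2. Adding 2 in place of 0.5 to each count gave -2.50 in place of -2.91 for Cxcl2 to Ccl3. For Cxcl1 to Cxcl2 it gave 0.62 in place of 0.85. No paired analysis was possible because the labels do not match burn and control sites of the same rat. Fold changes of genes with few counts, Ccl3 included, are limited by depth.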
